A study of Rattus norvegicus with 12 samples.

Results

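The cholesterol synthesis genes followed here were Hmgcs1, Idi1, Fdps, Fdft1, Sqle, Cyp51 and Dhcr7, with the pathway regulator Insig1. They were taken as every probe set whose single gene symbol in the array annotation was one of these 8 names. This gave 10 probe sets for 7 of the 8 genes, of 15866 non-control probe sets in all. No probe set carried the name Hmgcs1, so its signal was not analysed here and only its promoter was searched. All 10 passed the filter on dim signal, which left 9520 probe sets tested. No probe set of the 7 measured genes passed the test for a difference by treatment or housing.

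RNA came from the hippocampus of rats given KA or PBS at postnatal day 20. KA, which the labels leave as an abbreviation, is taken as kainic acid, a glutamate receptor agonist that induces seizures, and PBS as the saline vehicle. The 4 groups held 3 arrays each. PBS_isolated and KA_isolated rats lived alone in individual cages for 10 days, and PBS_enriched and KA_enriched rats lived in an enriched environment with 8 rats to a large cage. The labels give no time for the enriched rats, and no strain. The series asks whether enrichment reduces the neuronal injury that seizures cause. Each array was made from pooled hippocampi of 3 to 4 animals, and n is the number of pools. Nothing says how pools relate to litters or cages, and p-values measure the spread between these pools. No group was housed in the ordinary way, so effects of enrichment and of isolation cannot be told apart.

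Cholesterol of the brain is made within it, because lipoprotein cholesterol does not cross the blood-brain barrier. The pathway makes mevalonate from acetyl units, turns it into isoprene units, joins these to squalene and folds squalene into sterols. Its genes are switched on together by the transcription factor SREBP2 when sterol in the endoplasmic reticulum is low, and INSIG1 holds SREBP2 back when sterol is plentiful. Young brain uses the pathway for myelin, made by oligodendrocytes, and for membranes of neurons and astrocytes.

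Promoter windows from 250 bases before to 50 bases after the gene start were found in RefSeq (GRCr8) for 6 of the 8 genes. None was found for Sqle or Fdft1. The windows of Idi1, Fdps, Cyp51 and Insig1 are shown, since these 4 genes had the widest ratios of highest to lowest array. Sequences run 5′ to 3′ on the gene's strand. Capitals mark CCAAT (the NF-Y box), CACGTG (an E-box) and GGGCGG (the Sp1 box), each searched on both strands.
Idi1, chr17:66547475-66547774, minus strand: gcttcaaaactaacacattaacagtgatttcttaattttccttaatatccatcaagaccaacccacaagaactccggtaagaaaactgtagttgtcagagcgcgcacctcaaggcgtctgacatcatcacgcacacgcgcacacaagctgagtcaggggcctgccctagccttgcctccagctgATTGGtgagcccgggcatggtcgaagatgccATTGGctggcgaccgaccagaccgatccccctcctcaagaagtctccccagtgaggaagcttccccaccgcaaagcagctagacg
Fdps, chr2:176804767-176805066, minus strand: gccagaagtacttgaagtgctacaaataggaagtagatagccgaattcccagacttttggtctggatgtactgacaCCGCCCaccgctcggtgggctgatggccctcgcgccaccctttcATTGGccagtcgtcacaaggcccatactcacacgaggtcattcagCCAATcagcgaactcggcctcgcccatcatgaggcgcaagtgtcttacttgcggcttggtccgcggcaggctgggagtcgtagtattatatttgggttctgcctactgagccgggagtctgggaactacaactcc
Cyp51, chr4:30991443-30991742, plus strand: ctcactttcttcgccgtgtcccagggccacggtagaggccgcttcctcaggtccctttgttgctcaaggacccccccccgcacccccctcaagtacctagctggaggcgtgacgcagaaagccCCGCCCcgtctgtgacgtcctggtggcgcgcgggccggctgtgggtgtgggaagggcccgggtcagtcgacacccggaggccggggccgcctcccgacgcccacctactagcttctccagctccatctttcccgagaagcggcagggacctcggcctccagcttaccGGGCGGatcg
Insig1, chr4:8057720-8058019, minus strand: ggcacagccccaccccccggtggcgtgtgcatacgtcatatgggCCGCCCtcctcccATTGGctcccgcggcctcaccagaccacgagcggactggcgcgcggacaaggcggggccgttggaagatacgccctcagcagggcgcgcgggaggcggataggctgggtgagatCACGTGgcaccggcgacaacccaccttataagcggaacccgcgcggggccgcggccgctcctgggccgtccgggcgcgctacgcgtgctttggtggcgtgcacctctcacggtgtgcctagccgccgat
The sterol regulatory element, an SREBP site, was searched only as TCACNCCAC. These letters were in 0 of the 6 windows and in 1.12% of all 33469 windows of the same length. Other forms of the site were not searched, so the 0 does not show that these windows lack SREBP sites. The NF-Y box lay in 4 of the 6 (Hmgcs1, Idi1, Fdps and Insig1), against 37.5% of all windows. The Sp1 box lay in 5 of the 6, all but Idi1, against 33.1%. The E-box lay in 1, that of Insig1, against 6.42%. Boxes of different kinds did not overlap in these windows. A match describes letters in the window and not a bound site.

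The arrays were alike in level, with medians of 70.06 to 74.1. KA_enriched replicate 3 stood apart, with the lowest mean correlation with the other arrays (0.983) and the highest log2 ratio of 3 prime to 5 prime beta-actin signal (0.856, against 0.361 to 0.639 elsewhere). Of 10 hippocampal pyramidal and granule cell markers, 8 were named on the array and passed the filter. No other region was measured, so these markers cannot check the identity of the tissue. Their summed signal was 5771 to 6042 in PBS_isolated and lower, at 5415 to 5749, in KA_isolated, without overlap. It was 5696 to 6092 in PBS_enriched and 5081 to 6290.3 in KA_enriched, which overlapped. Of the 8 markers 0 passed in any contrast, and 5 of 8 were above 0 for KA in isolated rats. Choroid plexus markers, which a dissection can carry along, differed between pools, their summed signal running from 607 to 3479 within PBS_isolated. The part of either marker list in the results was not tested.

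Idi1 and Fdps stand for the isoprene steps. Idi1 interconverts the isoprene units isopentenyl and dimethylallyl diphosphate and was read by 2 probe sets. On the one with the higher mean, signal after PBS was 251, 273 and 276 in the isolated pools and 268, 269 and 290.0 in the enriched pools. After KA it was 287, 281 and 271 in isolated pools and 276, 334 and 241 in enriched pools. All 4 groups overlapped, and the highest and the lowest of the 12 arrays both lay in KA_enriched. On the other Idi1 probe set, signal after PBS was 62.8, 87.5 and 70.5 in the isolated pools and 71.7, 83.2 and 74.5 in the enriched pools. After KA it was 92.4, 77.2 and 79.5 in isolated pools and 85.2, 86.7 and 97.4 in enriched pools. There the 3 KA_enriched arrays lay above the 3 PBS_enriched arrays, while the isolated groups overlapped.

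Fdps makes farnesyl diphosphate, from which the routes to sterols and to protein prenylation part. Signal after PBS was 470.5, 418 and 457 in the isolated pools and 435, 441 and 524 in the enriched pools. After KA it was 468, 375 and 431 in isolated pools and 384, 386 and 410.4 in enriched pools. In enriched rats the 3 KA arrays lay below the 3 PBS arrays, and in isolated rats the groups overlapped. The fold for KA against PBS in enriched rats was 0.851 on the log2(signal + 17) scale, with a 95% interval of 0.737 to 0.983 (log2 -0.23, SE 0.0962, limma adjusted p = 0.932), and did not pass. It was the KA difference furthest from 0 in either housing among the 10. Leaving out 1 array gave log2 values between -0.28 (without PBS_enriched replicate 1) and -0.15 (without PBS_enriched replicate 3). In isolated rats the value was -0.08, and the interaction, which tests the difference between housings, did not pass (log2 -0.15, SE 0.14, limma adjusted p = 0.961). That interaction ran from -0.24 without KA_isolated replicate 2 to -0.07 without PBS_enriched replicate 3.

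**Figure D1:**
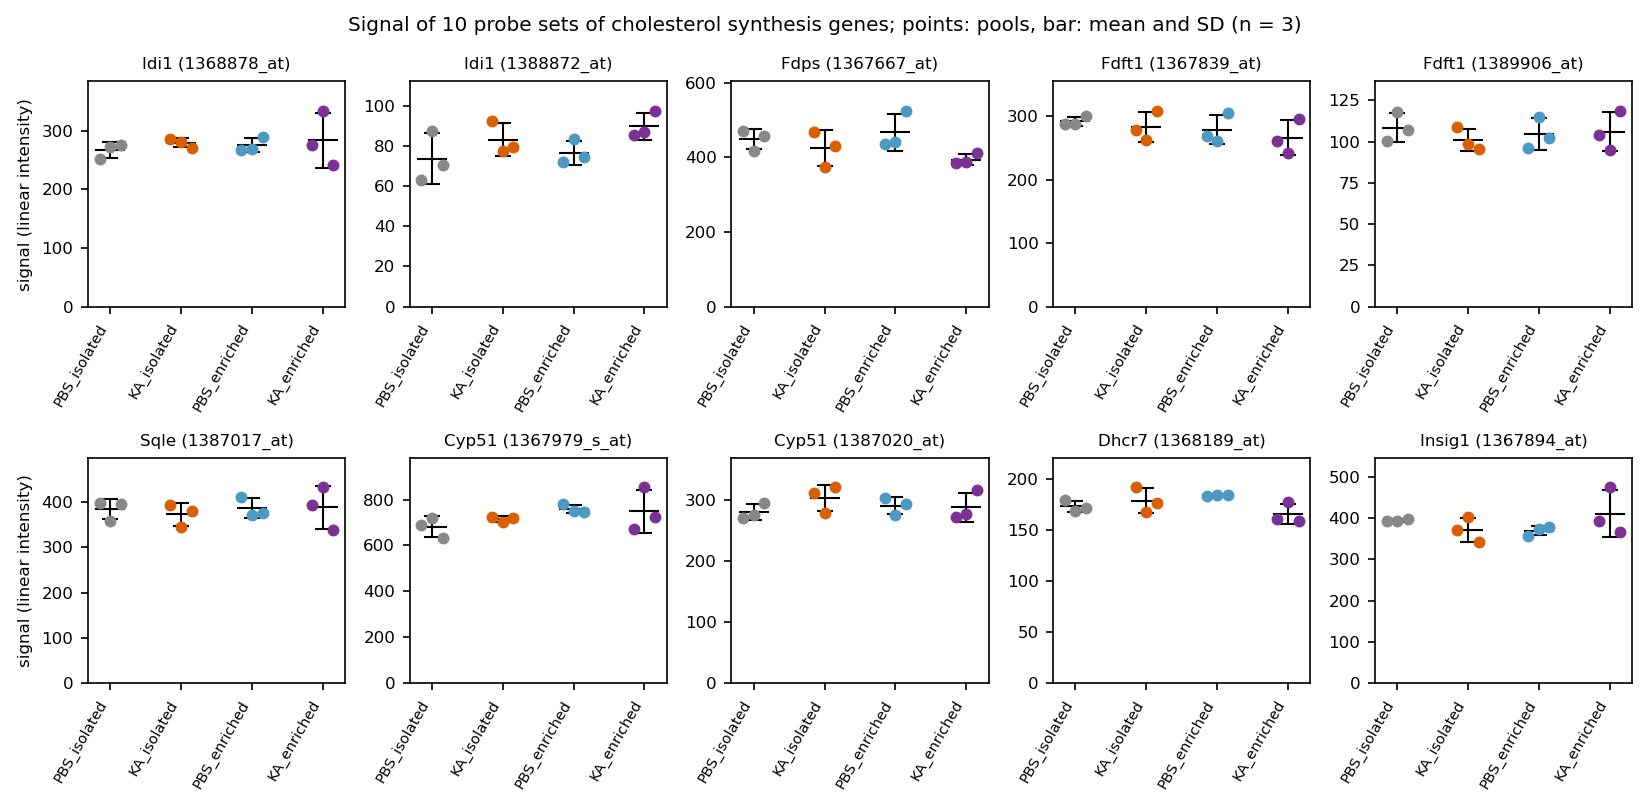
Signal (linear array intensity, y axis) of the 10 probe sets by group (x axis). Points are pools, and bars give the mean and SD of 3. In Fdps and Dhcr7 the KA_enriched pools lie below the PBS_enriched pools, and in the Idi1 probe set with the lower mean they lie above them. In Sqle and the Idi1 probe set with the higher mean all 4 groups overlap.

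Fdft1 and Sqle carry the pathway through squalene. Fdft1 is squalene synthase, the first step committed to sterols. On its probe set with the higher mean, PBS pools averaged 292 ± 6.95 (SD, n = 3) when isolated and 279 ± 22.9 when enriched, and KA pools 283 ± 23.4 and 267 ± 27.1. On the other, PBS pools averaged 108 ± 9.01 (SD, n = 3) when isolated and 104 ± 9.65 when enriched, and KA pools 101 ± 6.73 and 106 ± 11.9. Neither Fdft1 probe set separated KA from PBS in either housing, or the housings after either treatment. Sqle, squalene epoxidase, adds the oxygen that precedes ring closure and is a rate-limiting step. Signal after PBS was 398, 359 and 396 in the isolated pools and 412, 372 and 376 in the enriched pools. In the KA pools it was 394, 344 and 381 in isolated pools and 395, 433 and 339 in enriched pools. All 4 groups of Sqle overlapped. Its KA difference in enriched rats was the nearest to 0 of the 10 (log2 0.00, 95% interval -0.20 to 0.20).

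Cyp51 and Dhcr7 act on the sterol rings. Cyp51 is lanosterol 14-alpha-demethylase. On its probe set with the higher mean, signal after PBS was 691, 722 and 634 in the isolated pools and 781, 752 and 748 in the enriched pools. After KA it was 723, 702 and 721 in isolated pools and 670.5, 853 and 725 in enriched pools. After PBS the 3 enriched arrays lay above the 3 isolated ones, with a fold of 1.11 (95% interval 0.976 to 1.27, limma adjusted p = 0.998), and after KA the groups overlapped. The other Cyp51 probe set overlapped in all these comparisons: PBS pools averaged 280.3 ± 12.5 (SD, n = 3) when isolated and 290.4 ± 14.2 when enriched, and KA pools 304 ± 21.5 and 288 ± 23.9.

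Dhcr7, 7-dehydrocholesterol reductase, completes cholesterol in one of its final routes. Signal after PBS was 179, 168 and 172 in the isolated pools and 184, 184 and 184 in the enriched pools. For KA pools it was 192, 168 and 177 in isolated pools and 161, 177 and 159 in enriched pools. The 3 PBS_enriched arrays were nearly equal and lay above both the PBS_isolated and the KA_enriched arrays. The KA difference in enriched rats did not pass (log2 -0.14, SE 0.0722, limma adjusted p = 0.932). The interaction did not pass either (log2 -0.18, SE 0.10, limma adjusted p = 0.951).

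Insig1 retains SREBP2 in the endoplasmic reticulum and is itself an SREBP2 target. Signal after PBS was 393, 392 and 398 in the isolated pools and 357, 373 and 379.9 in the enriched pools. With KA it was 370.4, 402 and 342 in isolated pools and 392, 475 and 367 in enriched pools. After PBS the enriched arrays lay below the isolated ones (log2 -0.09, SE 0.0926, limma adjusted p = 0.998), and the other 3 comparisons within 1 housing or treatment overlapped. The interaction of Insig1 was the furthest from 0 of the 10 but did not pass (log2 0.23, SE 0.13, limma adjusted p = 0.953, 95% interval -0.06 to 0.51). It lay between 0.12 without KA_enriched replicate 2, which held the highest Insig1 signal, and 0.30 without KA_enriched replicate 3.

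Across the 7 contrasts limma called 0 of the 10 probe sets at an adjusted p under 0.05. For KA in isolated rats 0 of 10 had an unadjusted p under 0.05, and 0.0105% and 4.31% of all tested probe sets passed the adjusted and the unadjusted threshold. For KA in enriched rats 1 of 10 had an unadjusted p under 0.05, that of Fdps, against 0% and 4.98% of all. For the mean KA effect over both housings there were 2 of 10, against 0.0105% and 4.31% of all. These 2 lay in opposite directions: Fdps had log2 -0.16, SE 0.0680, limma adjusted p = 0.996, and the Idi1 probe set with the lower mean had log2 0.17, SE 0.0729, limma adjusted p = 0.996. The other Idi1 probe set had a log2 of 0.05 (SE 0.0697). For housing, 0 of 10 had an unadjusted p under 0.05 after PBS (0.0105% and 4.21% of all), after KA (0% and 7.02%) and for the mean of both treatments (0.021% and 5.64%). The interaction had 0 of 10, against 0% and 4.97% of all.

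The signs were mixed. The KA difference was above 0 for 5 of 10 probe sets in isolated rats and for 5 of 10 in enriched rats, with medians of 0.00 and -0.01 beside -0.01 and 0.00 over all tested probe sets. The mean housing difference was above 0 for 6 of 10, with a median of 0.01 beside 0.00. It was highest for the Cyp51 probe set with the higher mean (log2 0.11, SE 0.0621, limma adjusted p = 0.879) and lowest for that of Fdft1 (log2 -0.08, SE 0.0637, limma adjusted p = 0.893). Without KA_enriched replicate 2 these values were 0.06 and -0.04. The outermost limits of the 10 intervals were 0.863-fold and 1.18-fold for the mean housing effect and 0.811-fold and 1.26-fold for the mean KA effect. For KA in enriched rats they were 0.737-fold and 1.33-fold, and the small number of arrays limits the precision.

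**Figure D2:**
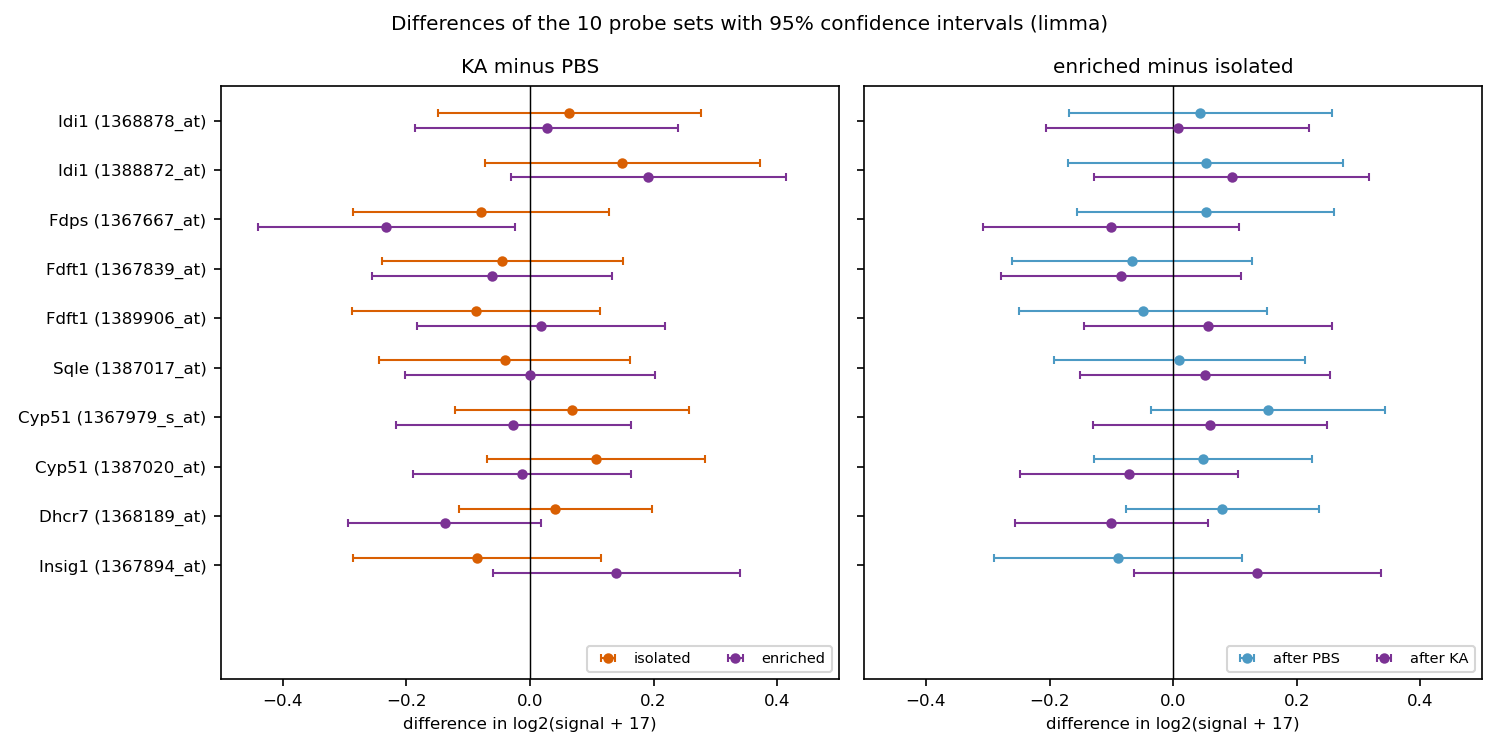
Difference in log2(signal + 17) (x axis) for KA minus PBS by housing and for enriched minus isolated by treatment, for the 10 probe sets (y axis). Points are limma estimates and bars 95% intervals. Of the 40 intervals 1 leaves out 0, that of Fdps for KA in enriched rats (-0.44 to -0.02, limma adjusted p = 0.932).

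Groups that did not overlap were counted as well. In enriched rats 3 of 10 probe sets had no overlap between KA and PBS, with Fdps and Dhcr7 lower and the Idi1 probe set with the lower mean higher, where 9.62% of all tested probe sets had none. After PBS 3 of 10 had no overlap between the housings, with the higher-mean Cyp51 probe set and Dhcr7 higher and Insig1 lower, where 11.6% of all had none. Both counts use the same 3 PBS_enriched arrays. For KA in isolated rats and for housing after KA the count was 0 of 10, against 10.8% of all in each. With 6 arrays a side it was 0 of 10 for KA (0.105% of all) and for housing (0.305%).

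KA_enriched replicates 2 and 3 held many of the extreme values. KA_enriched replicate 2 was the highest of the 12 arrays for Insig1, Sqle and the higher-mean probe sets of Cyp51 and Idi1, and the lowest for both Fdft1 probe sets. KA_enriched replicate 3 was the lowest for Sqle, Dhcr7 and the Idi1 probe set with the higher mean, and the highest for the other Idi1 probe set and the Fdft1 probe set with the lower mean. Over all tested probe sets replicate 2 was the highest for 12.6% and the lowest for 13.8%, and replicate 3 for 16.7% and 16.7%, against 5.72% to 9.15% highest in the other arrays. With the beta-actin ratio as a covariate, 0 of the 10 were called in each contrast. The coefficient of variation of the 10 probe sets over the 12 arrays was 5.71% to 12.3%, with a median of 7.89% beside 9.74% for all tested.

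**Figure D3:**
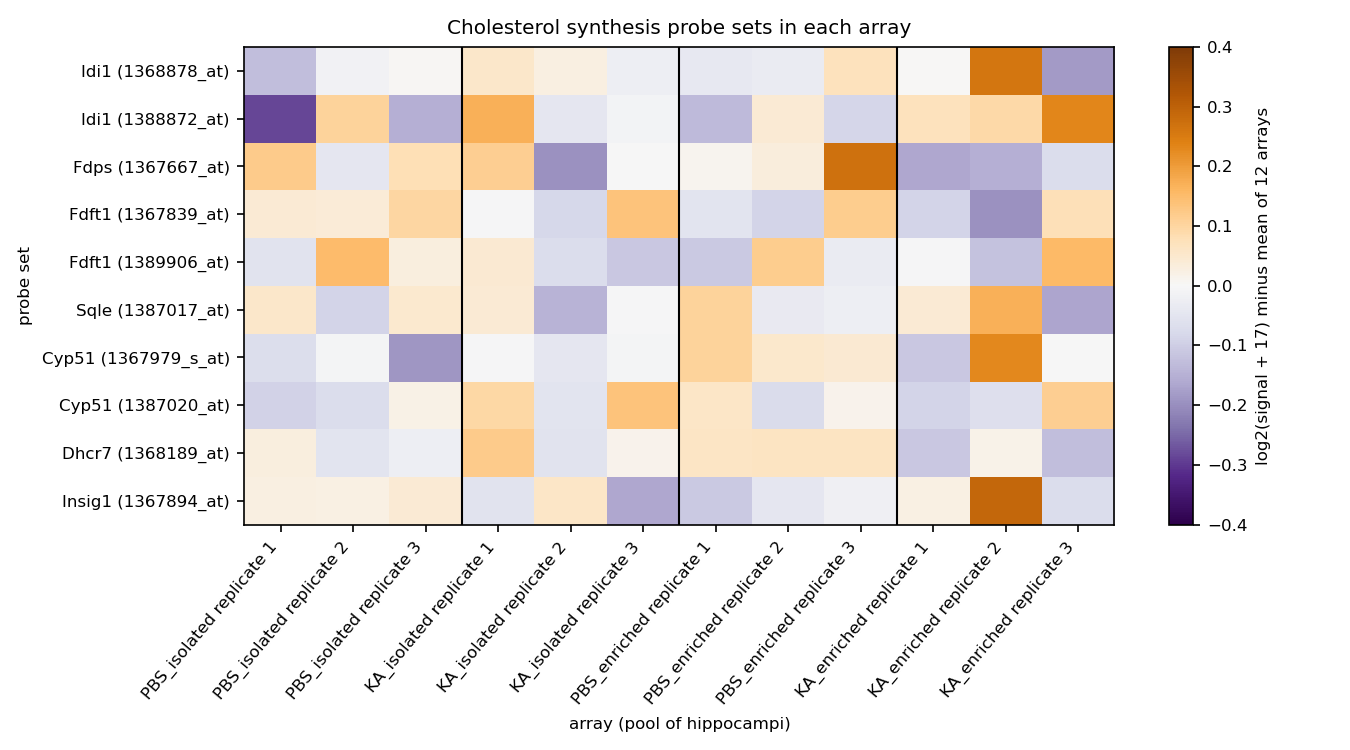
Log2(signal + 17) of each probe set (rows) in each array (columns) less its mean over the 12 arrays, on a colour scale, with lines dividing the 4 groups. KA_enriched replicate 2 is the highest array for 4 of the 10 probe sets and the lowest for both of Fdft1.

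The signals of the probe sets did not vary together as one set. Over the 12 arrays Pearson r was above 0 in 20 of the 42 pairs of probe sets of different genes, with a median of -0.02. The highest pair was Insig1 with the higher-mean Idi1 probe set (r = 0.68, rho = 0.50), and next was Dhcr7 with Fdps (r = 0.65, rho = 0.73). The lowest was Insig1 with the lower-mean Cyp51 probe set (r = -0.63, rho = -0.62). Probe sets of 1 gene tracked each other little, with r = 0.02, rho = 0.18 for Cyp51, r = 0.12, rho = 0.09 for Idi1 and r = 0.22, rho = 0.13 for Fdft1. All pairs share the same arrays (n = 12), and these values are descriptions. Since even probe sets of 1 gene tracked each other little, low r between genes does not show whether the genes vary together.

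The mean of the 7 genes, each by its probe set with the highest mean and centred over the arrays, ran from -0.08 in KA_enriched replicate 3 to 0.09 in KA_enriched replicate 2 (log2). Of 8051 other named probe sets, those most like it over the 12 arrays were Appl1 (r = 0.93, rho = 0.88), Tomm20 (r = 0.86, rho = 0.87), Arpc5 (r = 0.86, rho = 0.83), Tmem128 (r = 0.85, rho = 0.82), Pde6d (r = 0.84, rho = 0.84) and Taf9b (r = 0.83, rho = 0.75). Taken on deviations from the group means, Appl1, Tomm20 and Arpc5 were among the 6 most alike. Tmem128 (r = 0.872), Pde6d (r = 0.874) and Taf9b (r = 0.856) were not among those 6. The genes were picked as the highest of 8051, and both rankings use the same arrays, so the second is no separate support.

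Of 17 further sterol synthesis enzymes 13 were tested, and 0 passed in any contrast. For KA 8 of the 13 were above 0 in isolated rats and 3 in enriched rats, with medians of 0.04 and -0.06. For Lss, which closes the sterol rings after squalene epoxidase, PBS pools averaged 130.5 ± 9.21 (SD, n = 3) when isolated and 139 ± 6.34 when enriched, and KA pools 118 ± 5.73 and 122 ± 3.76. In enriched rats the KA arrays of Lss lay below the PBS arrays, and in isolated rats they overlapped. Its mean KA difference did not pass (log2 -0.15, SE 0.0515, limma adjusted p = 0.996). Lss was chosen by the mean housing effect (log2 0.07, SE 0.0515) and by KA in isolated rats (log2 -0.13, SE 0.0729). The mean KA difference of Lss includes that of isolated rats, so it is not independent of the choice. For Mvd, the decarboxylase that ends the mevalonate steps, PBS pools averaged 61.9 ± 10.00 (SD, n = 3) when isolated and 73.4 ± 13.9 when enriched, and KA pools 81.4 ± 10.8 and 59.2 ± 13.2, and the interaction did not pass (log2 -0.57, SE 0.21, limma adjusted p = 0.919). For Hsd17b7, a sterol ketoreductase, PBS pools averaged 51.0 ± 5.30 (SD, n = 3) when isolated and 52.6 ± 1.81 when enriched, and KA pools 52.8 ± 2.96 and 63.5 ± 7.66. The KA_enriched arrays of Hsd17b7 lay above the other 9 arrays (log2 0.21, SE 0.0851, limma adjusted p = 0.932 for KA in enriched rats). Its group means were dim, below the array medians of 70.06 to 74.1. Between KA and PBS in enriched rats 9.62% of all tested probe sets had no overlap. Mvd was chosen by KA in isolated rats (log2 0.32, SE 0.145) and Hsd17b7 by the mean housing effect (log2 0.12, SE 0.0602). The Mvd interaction includes the KA difference that chose Mvd. The KA_enriched arrays of Hsd17b7 also enter the housing effect that chose it. Neither value is therefore independent of the choice.

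Of 12 sterol sensing and uptake genes 7 were tested, and 0 passed in any contrast. Srebf2 encodes SREBP2. For Srebf2 PBS pools averaged 599.7 ± 16.6 (SD, n = 3) when isolated and 555 ± 68.5 when enriched, and KA pools 589 ± 67.5 and 581 ± 52.5, and all 4 groups overlapped. Srebf1 encodes SREBP1, which favours fatty acid genes. For Srebf1 PBS pools averaged 153 ± 6.50 (SD, n = 3) when isolated and 157 ± 15.9 when enriched, and KA pools 175 ± 5.95 and 152 ± 13.98. Its KA_isolated arrays lay above its PBS_isolated arrays without passing (log2 0.17, SE 0.0848, limma adjusted p = 0.999). Mbtps2, the site-2 protease that frees active SREBP, had the mean housing difference furthest from 0 in this list (log2 0.15, SE 0.0626, limma adjusted p = 0.832).

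Of 14 genes of fatty acid synthesis 12 were tested, and 2 were below the filter. Of 18 genes of cholesterol export, storage and breakdown 9 were tested, and 4 were below the filter. The remaining 5 (Abca1, Abca7, Npc1, Cyp46a1 and Ch25h) were not named on the array. Among the genes tested in these lists, 0 passed in any contrast. The fatty acid desaturase Scd had the mean housing difference furthest from 0 of the first list (log2 -0.12, SE 0.0727, limma adjusted p = 0.879), followed by the acyl-CoA ligase Acsl3 (log2 0.10, SE 0.0680, limma adjusted p = 0.879). For Npc2, which hands cholesterol out of lysosomes, PBS pools averaged 494 ± 30.3 (SD, n = 3) when isolated and 539 ± 106 when enriched, and KA pools 688 ± 111 and 563 ± 70.9. In isolated rats the KA arrays of Npc2 lay above the PBS arrays (log2 0.45, SE 0.14, limma adjusted p = 0.999), and in enriched rats they overlapped. The summed signal of 13 microglia and macrophage markers was 2073 to 2182 in PBS_isolated and 2839.6 to 3365 in KA_isolated. It was 2112, 3098 and 2169 in PBS_enriched replicates 1 to 3 and 2188, 1895 and 3114 in those of KA_enriched. For KA in isolated rats all 13 markers were above 0, and 11 had an unadjusted limma p under 0.05, against 4.31% of all tested probe sets. Of the 13 markers 0 passed in any contrast. The part of these markers in the Npc2 values was not tested. For Apoe, the main lipoprotein carrier of brain cholesterol, PBS pools averaged 3842 ± 132 (SD, n = 3) when isolated and 3739 ± 146 when enriched, and KA pools 3986 ± 327 and 3827 ± 37.6.

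**Figure D4:**
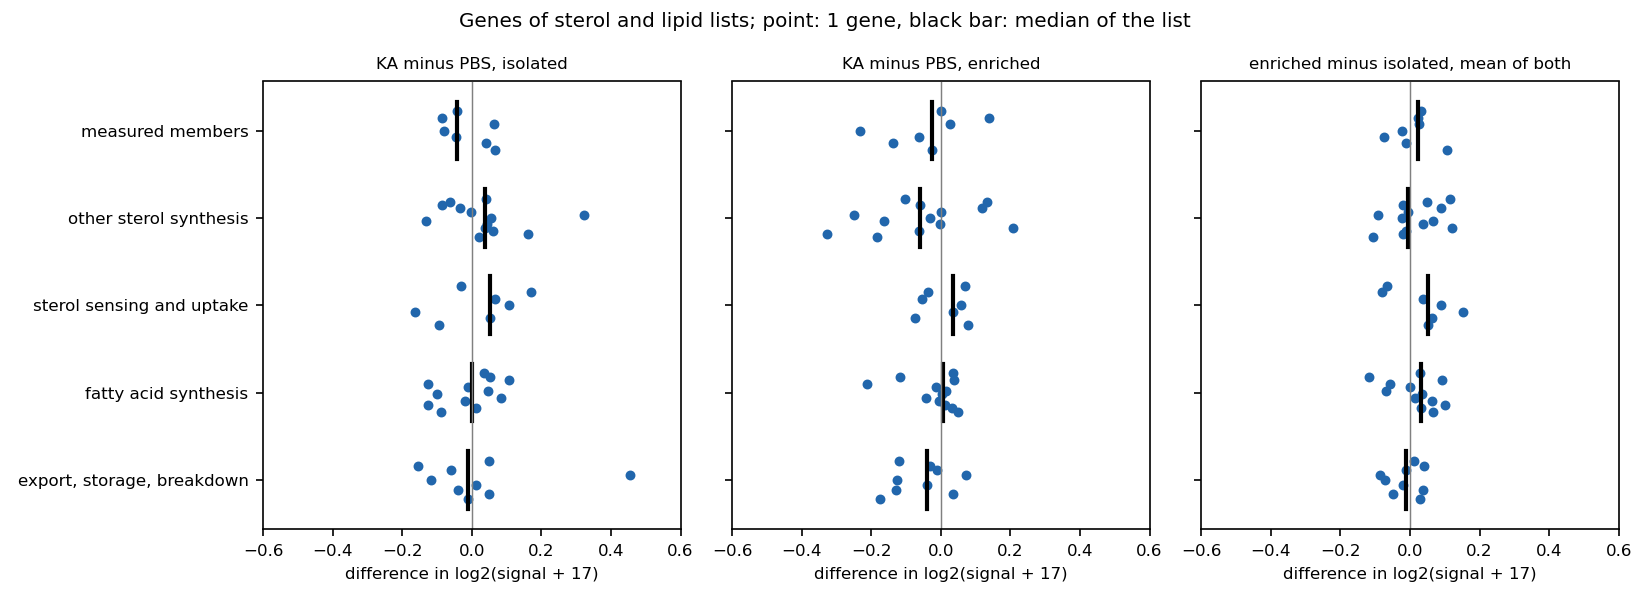
Difference in log2(signal + 17) (x axis) for the tested genes of the 5 pathway lists (rows) in 3 comparisons (panels). Each point is 1 gene by its probe set with the highest mean, and black bars are list medians, which lie between -0.06 and 0.05.

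Glial cells make much of the brain's cholesterol. In bulk tissue fewer cells of a type and less RNA per cell cannot be told apart. The summed signal of 9 oligodendrocyte and myelin markers was 14132 to 14191 in PBS_isolated, 13718 to 14959.9 in KA_isolated, and ran from 13439.7 to 15455 over the enriched groups, so all 4 groups overlapped. That of 9 astrocyte markers was 12665 to 13858 in PBS_isolated and 13734 to 14603 in KA_isolated, and 12606 to 13432 and 13146 to 14422 in PBS_enriched and KA_enriched. Of the oligodendrocyte markers and the astrocyte markers, 0 passed in any contrast.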

How the data were processed

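Affymetrix-type arrays measured hippocampal RNA in 12 pooled samples. The authors deposited 1 linear intensity per probe set, and the trimmed mean was the same in every array. How probes were summarised is not stated by the labels or headers. Of 15923 probe sets 57 controls were left out, and 12783 had 1 gene symbol, 312 several and 2771 were not listed. From the deposited intensities log2(signal + 17) was taken here, 17 being the 20th percentile of all signals, and the 60% of probe sets with the highest mean were tested. All 4 groups were fitted together with limma 3.58.1 (lmFit and eBayes, R 4.3.3), with 13.1 degrees of freedom, no block, and Benjamini-Hochberg adjustment over 9520 probe sets at 0.05. The contrasts were KA against PBS by housing and averaged, enriched against isolated by treatment and averaged, and the interaction. The fit was tested on simulated data.

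The members and lists were chosen with earlier results of these data known. All member probe sets are named. From each other list up to 4 genes by smallest unadjusted p for the mean housing effect and up to 2 for KA in isolated rats could be named, with Srebf2 and Srebf1. The contrast given for such a gene could differ from the one that chose it and could still use the same arrays. Promoter sequences are RefSeq's (GRCr8). Alternatives covered scaling, pseudocount, filter, array weights, a beta-actin covariate, the groups fitted, the replicate block and leaving out each array.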

Additional observations from a re-analysis of the deposited data

How the results depend on the processing

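Under the 22 alternative settings, 12 of which left out 1 array, 0 of 1496 fits of the 10 probe sets passed, with a lowest limma adjusted p of 0.541 and a largest absolute log2 value of 0.30. Counts of called probe sets over the whole array moved as follows. For KA in isolated rats the count was 5 with only the groups compared, against 1. For the mean KA effect it was 0 with no filter, against 1. For housing after PBS it was 2 with a stricter filter and 2 with array weights, against 1, and 1 to 2 without 1 array. For housing after KA it was 0 to 1 without 1 array, against 0. For the mean housing effect it was 1 with equal medians, the smaller pseudocount, array weights, the beta-actin covariate or the replicate block, against 2, and 1 to 2 without 1 array. Deviations from the group means of same-numbered arrays had r of -0.0721 to 0.199 over 18 pairs, with a median of 0.0564 and 15 above 0, against a median of -0.0154 and 12 above 0 in 36 pairs of different number. Of the 18 pairs 2 were above 0.1, and 7 of the 12 arrays were most like those of their own number. This lean falls short of the rule that every pair lie above 0.1, so the replicate block is given only as an alternative. The main fit does not model the lean. Deviations sum to 0 within each group, so the values of different-numbered pairs are tied to those of same-numbered pairs. The median of the 10 for housing after KA, 0.03, was -0.0321 with the stricter filter, which tests fewer of them, -0.0466 with the beta-actin covariate, and -0.0309 to 0.0459 without 1 array.

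The uncalled log2 values below changed sign, and the cause was not tested. All member probe sets were followed only for KA in enriched rats, the mean KA effect and the mean housing effect. In the other contrasts only some were followed, so the list is not complete for those. With the beta-actin covariate the lower-mean Fdft1 probe set had -0.0421 for KA in enriched rats. For the mean housing effect that covariate gave -0.0733 for it and -0.0257 for the lower-mean Idi1 probe set. That Fdft1 probe set had -0.0138 with equal medians, -0.0067 with quantile normalization and -0.0101 with array weights, and the higher-mean Cyp51 probe set had -0.014 for the mean KA effect with array weights. Without 1 array, the range for KA in enriched rats was -0.0773 to 0.0918 for Sqle, -0.0759 to 0.0257 for Cyp51 (lower-mean), -0.1346 to 0.001 for Fdft1 (higher-mean), -0.0553 to 0.0824 for Fdft1 (lower-mean), -0.0903 to 0.1318 for Idi1 (higher-mean probe set) and -0.1218 to 0.0482 for Cyp51 (higher-mean). For the mean KA effect it was -0.0592 to 0.0254 for Sqle, -0.0269 to 0.0581 for Cyp51 (higher-mean), -0.025 to 0.0644 for Insig1 and -0.0133 to 0.0977 for Idi1 (higher-mean probe set). For the mean housing effect it was -0.0436 to 0.0073 for Cyp51 (lower-mean), -0.0329 to 0.036 for Fdft1 (lower-mean), -0.0326 to 0.0136 for Dhcr7, -0.0284 to 0.0609 for Insig1, -0.0658 to 0.0115 for Fdps, -0.008 to 0.0766 for Sqle and -0.033 to 0.0781 for Idi1 (higher-mean probe set).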
